A study of Mus musculus with 9 samples.

Results

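Transcript levels of 9 genes that pattern the embryonic mouse forebrain were compared between stem cell-derived and newborn retinal progenitor cells. The genes are Dlx1, Dlx2, Dlx5, Dlx6os1, Gsx2, Emx2, Otx1, Pou3f4 and Fezf2. They were taken by symbol: every probe set that the platform annotation gives to exactly 1 of these 9 genes was used, which gave 10 probe sets of the 45101 on the array and 9 of the 18193 genes annotated there. Pou3f4 had 2 probe sets and each other gene had 1. Measurements came from 3 groups of 3 arrays. DKK1-treated ESC-RPCs are retinal progenitor cells, so named in the labels, made from embryonic stem cells and given recombinant DKK1 at 1 ng/ml over 1 day; DKK1 is a secreted protein that blocks Wnt signalling. Untreated ESC-RPCs were made in the same way without DKK1. Both ESC-RPC groups came from the mouse ES line 46C, itself made by gene targeting in E14Tg2a.IV cells and carrying a green fluorescent reporter in the Sox1 gene, so they represent a single line. Embryoid bodies formed over 3 days with SB431542, which blocks Nodal and activin receptors, were plated without retinoic acid, Sox1-positive cells (35.8%) were sorted at day 7, and the sorted cells were cultured with 10 µM DAPT, a Notch pathway inhibitor, and 20 ng/ml bFGF. Primary RPCs were untreated cells dissociated from C57 neural retina at postnatal day 1, labelled as primary cultured cells, and stand as the newborn comparison. The labels call the replicates biological without saying whether they were separate cultures, animals or pools, so the p-values below measure only the spread between these arrays.

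DLX proteins are homeodomain transcription factors that act in the ventral telencephalon, the part of the forebrain that makes inhibitory neurons using GABA. There they work downstream of GSX2, and Dlx genes lie in neighbouring pairs on a chromosome. Dlx1 and Dlx2 are also known from retinal ganglion, amacrine and horizontal cell development. EMX2 patterns the dorsal telencephalon, FEZF2 specifies projection neurons of the cortex, OTX1 acts in forebrain and sense organ development, and POU3F4 is a POU-domain factor of the developing forebrain and inner ear. Wnt antagonists such as DKK1 are known to favour anterior fates in the early neural plate.

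Dlx1 and Dlx2 lie on chromosome 2, with no protein-coding gene between them, and Dlx5 and Dlx6os1 lie on chromosome 6 beside Dlx6. Dlx6os1 is a long noncoding RNA gene that overlaps Dlx6. Gsx2 is on chromosome 5, Emx2 on 19, Otx1 on 11, Pou3f4 on X and Fezf2 on 14. RefSeq promoters (GRCm38.p6) were found for 7 of the 9 genes in 8 windows, since Dlx6os1 had windows at 2 transcription starts. The Dlx1 window and both Dlx6os1 windows lie inside the annotated spans of these genes, chr2:71528113-71533981 and chr6:6820543-6871627. The Fezf2 window, chr14:12345866-12346115, which is not shown, also lies inside its gene's span, chr14:12338992-12346803. All of these windows therefore precede a start within the gene and not its outermost end. First and second below only name the 2 Dlx6os1 windows. The 250 bases before the start are shown for the DLX loci, because their transcripts varied together across arrays and the windows could be searched for the homeodomain core motif. Capitals mark TAATTA, which reads the same on both strands.
Dlx1, chr2:71529195-71529444, plus strand: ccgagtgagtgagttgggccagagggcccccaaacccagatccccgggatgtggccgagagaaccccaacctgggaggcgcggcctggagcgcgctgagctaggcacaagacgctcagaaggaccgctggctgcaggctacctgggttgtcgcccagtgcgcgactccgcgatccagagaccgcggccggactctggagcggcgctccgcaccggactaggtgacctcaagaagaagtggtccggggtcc
Dlx2, chr2:71546755-71547004, minus strand: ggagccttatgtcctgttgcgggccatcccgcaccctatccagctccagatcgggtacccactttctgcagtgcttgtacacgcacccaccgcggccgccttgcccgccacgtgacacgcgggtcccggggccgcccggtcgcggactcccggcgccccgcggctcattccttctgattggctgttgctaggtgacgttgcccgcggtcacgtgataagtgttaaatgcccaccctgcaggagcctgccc
Dlx6os1, first start, chr6:6869534-6869783, minus strand: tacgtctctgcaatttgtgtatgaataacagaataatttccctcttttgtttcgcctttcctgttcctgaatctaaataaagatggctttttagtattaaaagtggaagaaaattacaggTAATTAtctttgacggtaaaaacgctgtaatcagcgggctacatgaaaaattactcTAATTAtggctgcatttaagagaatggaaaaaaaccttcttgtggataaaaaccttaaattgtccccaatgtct
Dlx6os1, second start, chr6:6861684-6861933, minus strand: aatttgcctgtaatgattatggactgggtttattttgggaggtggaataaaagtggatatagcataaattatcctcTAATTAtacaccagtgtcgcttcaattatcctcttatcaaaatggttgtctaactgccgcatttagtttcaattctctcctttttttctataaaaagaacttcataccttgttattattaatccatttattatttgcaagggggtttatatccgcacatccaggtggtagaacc
The homeodomain motif stood in both Dlx6os1 windows and in 0 of the other 6 windows. The window at the first start held 2 copies, beginning 130 and 74 bases before the start, and that at the second start held 1, beginning 174 bases before it. Of 32851 mouse promoter windows of this length, 4.84% held the motif. CTTTGAT, the core that TCF factors of the Wnt pathway bind, was searched on both strands and was in 0 of the 8 windows, so it overlapped no homeodomain motif, against 3.21% of all windows. These matches describe letters in a window only.

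Every gene of the set except Fezf2 was brighter in both ESC-RPC groups than in primary RPCs, and Fezf2 was dimmer. By limma, fitted over 29052 probe sets on the log2 scale with Benjamini-Hochberg adjustment and a threshold of 0.05, 8 of the 9 genes were higher and 1 was lower in DKK1-treated ESC-RPCs over primary RPCs. The same counts, 8 higher and 1 lower, held for untreated ESC-RPCs over primary RPCs. Over all 13320 genes tested, 25.8% were higher and 26.5% lower in the first comparison, and 26.0% were higher and 26.6% lower in the second. None of the 9 genes had arrays that overlapped between ESC-RPCs and primary RPCs, while groups did not overlap for 59.2% of all genes with DKK1-treated and 60% with untreated cells. The median log2 difference over the 9 genes was 4.89 with DKK1-treated and 4.85 with untreated cells, against -0.01 over all genes in both comparisons. With the 6 genes that were dim in primary cells set at the lower bounds given below, it was 3.57 with DKK1-treated and 3.43 with untreated cells. All 10 probe sets passed the filter on dim signal, but 7 of them did so through ESC-RPC arrays alone, so these counts describe the genes and carry no further weight. The 2 comparisons share the primary arrays. In these bulk samples fewer cells of a type and less RNA per cell cannot be told apart.

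Dlx1, on chromosome 2, gave intensities of 1794, 1862 and 1292 on the DKK1-treated arrays, 1832, 1535 and 1053 on the untreated arrays, and 90.7, 183 and 98.3 on the primary arrays. Both ESC-RPC groups lay wholly above the primary group, and the third array was the lowest of each ESC-RPC group. The log2 difference was 3.79 ± 0.28 (SE, limma adjusted p = 1.17e-06) for DKK1-treated over primary cells and 3.61 ± 0.28 (limma adjusted p = 1.72e-06) for untreated over primary cells. Dlx2, the gene next to it, read 1076, 1072 and 710.4 on DKK1-treated arrays, 1045, 860.1 and 674 on untreated arrays, and 136, 217 and 163 on primary arrays. Its log2 differences were 2.47 ± 0.22 (SE, limma adjusted p = 6.61e-06) with DKK1 and 2.32 ± 0.22 (limma adjusted p = 1.05e-05) without. Both genes were above the 40th percentile of their own array on all 3 primary arrays, so by that cutoff they had signal in newborn retina as well. The 40th percentiles of the arrays were 44.7 to 52.9. By the 60th percentiles, 166 to 184 on primary arrays, Dlx1 was dim on all 3 primary arrays. It then had only bounds, of 9.43-fold with DKK1 and 8.31-fold without.

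Dlx5, which pairs with Dlx6 and acts after Dlx1 and Dlx2 in the ventral telencephalon, read 646, 615 and 443 on DKK1-treated arrays, 645, 526 and 393 on untreated arrays, and 19.8, 11.4 and 2.24 on primary arrays. The primary arrays were all below their 40th percentile, so only a bound is given: at least 11.8-fold higher in DKK1-treated cells (limma adjusted p = 1.3e-05) and at least 10.8-fold in untreated cells (limma adjusted p = 1.55e-05), each against those percentiles. Against the 60th percentiles the bounds were 3.25-fold with DKK1 and 2.96-fold without, so this and every later bound depends on the percentile chosen. The p-value beside this and every later bound belongs to the fitted difference of the values as deposited and does not test the bound. Its fitted fold over primary cells shifted by up to 1.89-fold when 1 primary array was left out. The log2 difference was 5.22 with DKK1 and 5.09 without DKK1 when primary replicate 3 was left out. It was 6.79 with DKK1 and 6.66 without DKK1 when primary replicate 1 was. Dlx6os1 read 939, 769 and 567 on DKK1-treated arrays, 657, 528 and 423 on untreated arrays, and 12.3, 11.1 and 16.3 on primary arrays. Again the primary arrays were below the percentile, and the RNA was at least 15.7-fold higher in DKK1-treated cells (limma adjusted p = 1.49e-08) and at least 11.1-fold higher in untreated cells (limma adjusted p = 2.79e-08). Whether the Dlx6os1 probes read the strand of the noncoding RNA or of the overlapping Dlx6 was not checked here.

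Gsx2, a homeodomain factor upstream of the Dlx genes, read 180.3, 230.1 and 116 on DKK1-treated arrays, 220.5, 229 and 161 on untreated arrays, and 1.38, 1.43 and 1.01 on primary arrays. With the primary arrays below the percentile, it was at least 3.56-fold higher with DKK1 (limma adjusted p = 1.59e-07) and at least 4.25-fold higher without (limma adjusted p = 1.29e-07). The primary arrays lay close to 1, the lowest value in the table, so the bounds say nothing of the true size.

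Emx2, on chromosome 19, read 366, 440.1 and 304 on DKK1-treated arrays, 301, 411 and 314 on untreated arrays, and 24.9, 25.6 and 27.3 on primary arrays. The lower bounds were 7.72-fold with DKK1 (limma adjusted p = 6.17e-08) and 7.15-fold without (limma adjusted p = 7.55e-08). Otx1 read 836, 1082 and 889.7 on DKK1-treated arrays, 860.0, 1006 and 849.5 on untreated arrays, and 28.7, 37.1 and 29.0 on primary arrays. It was at least 19.6-fold higher with DKK1 (limma adjusted p = 2.66e-09) and at least 19.1-fold higher without (limma adjusted p = 2.8e-09). The ESC-RPC groups lay close together for both genes, with the second array highest in each.

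Pou3f4, on the X chromosome, has 2 probe sets, which both showed the pattern. The brighter one read 1518, 1870.0 and 1673 on DKK1-treated arrays, 1699, 2026 and 1836 on untreated arrays, and 2.79, 6.25 and 3.20 on primary arrays. The bounds were 35.5-fold with DKK1 (limma adjusted p = 1.58e-09) and 39.0-fold without (limma adjusted p = 1.34e-09). The other probe set read 1005, 1204 and 1105 on DKK1-treated arrays, 964, 1151 and 1095 on untreated arrays, and 1.81, 9.90 and 4.82 on primary arrays, with bounds of 23.3-fold with DKK1 (limma adjusted p = 1.79e-07) and 22.5-fold without (limma adjusted p = 1.87e-07). Neither probe set's level is set against the other's, since probes differ in how they bind.

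Fezf2, on chromosome 14, went the other way. It read 57.6, 117 and 88.8 on DKK1-treated arrays, 124, 165 and 129 on untreated arrays, and 1220.4, 2081 and 1305 on primary arrays. The log2 difference was -4.14 ± 0.27 (SE, limma adjusted p = 4.95e-07) for DKK1-treated over primary cells and -3.43 ± 0.27 (limma adjusted p = 2.16e-06) for untreated over primary cells. The zinc-finger gene was above the 40th percentile on every array of every group, and the primary arrays were all higher than any ESC-RPC array. By the 60th percentiles it was dim on all 3 DKK1-treated arrays. It then had only a bound with DKK1, of at least 8.92-fold lower than in primary cells.

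**Figure D1:**
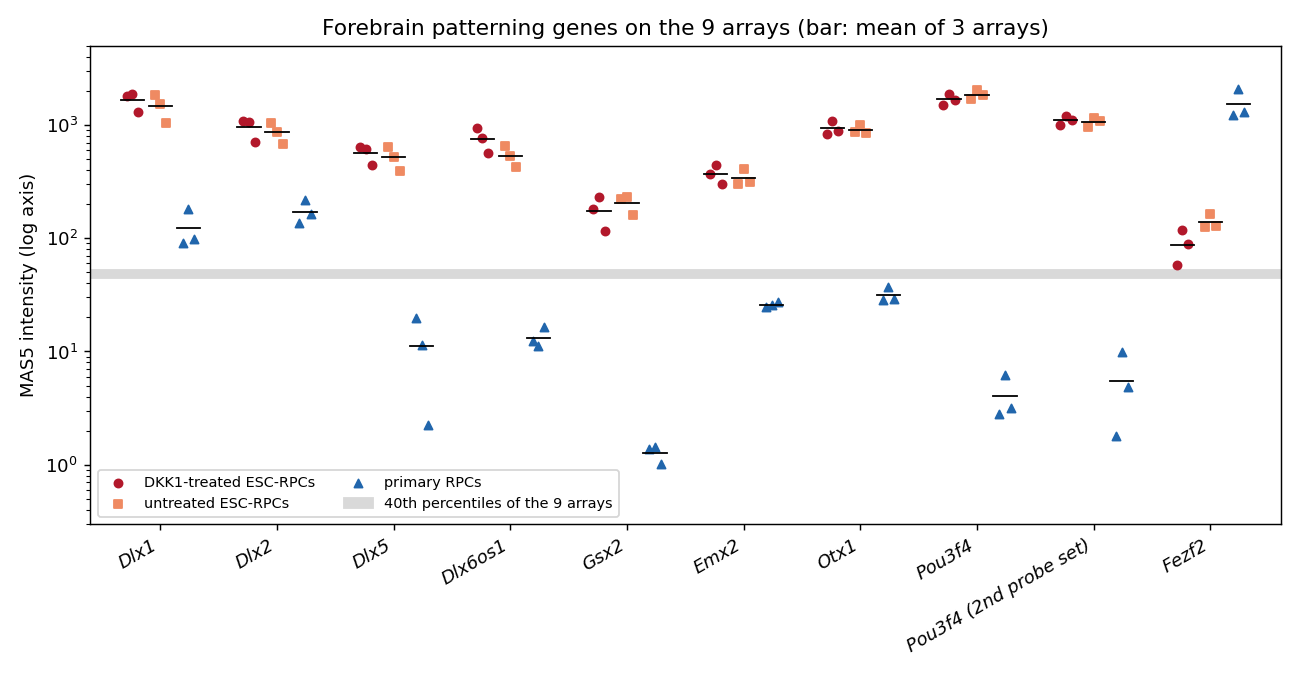
MAS5 intensity (log axis) of the 10 probe sets of the 9 genes on each array, with DKK1-treated, untreated and primary arrays in that order and a bar at each mean of 3 arrays; the grey band spans the arrays' 40th percentiles, 44.7 to 52.9. Fezf2 alone is highest in the primary RPCs, at 1220.4 to 2081, and 7 probe sets lie below the band on all primary arrays.

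DKK1-treated cells were compared with untreated ESC-RPCs to ask what 1 day of DKK1 changed. No gene of the set was called: limma's adjusted p was 0.999941 for each of the 9, and over all genes 0 of 13320 were higher and 0 lower, with 2.40% of genes (320) under an unadjusted p of 0.05. The differences, on the log2 scale, were 0.18 for Dlx1 (95% interval -0.42 to 0.79), 0.15 for Dlx2 (-0.35 to 0.64), 0.13 for Dlx5 (-1.20 to 1.47), -0.25 for Gsx2 (-1.12 to 0.61), 0.11 for Emx2 (-0.30 to 0.52), 0.04 for Otx1 (-0.30 to 0.39) and -0.14 for Pou3f4 (-0.70 to 0.43). An interval that spans 0 leaves changes up to either of its ends possible. Dlx6os1 had the largest positive difference, 0.49 ± 0.23 (SE, 95% interval -0.02 to 1.01), with overlapping groups and an adjusted p of 0.999941. Fezf2 had the largest negative one, -0.72 ± 0.27 (SE, 95% interval -1.31 to -0.12, adjusted p = 0.999941), and was the only 1 of the 9 with an unadjusted p under 0.05. It was also the only 1 of the 9 genes whose DKK1-treated and untreated arrays did not overlap, and groups did not overlap for 12.0% of all genes. The count of 0 depends on how replicates are treated. With the replicate number as a block in the 6 ESC-RPC arrays, Dlx6os1 was higher with DKK1 (log2 0.49 ± 0.07, SE, limma adjusted p = 0.0322). Fezf2 was not called in that fit (limma adjusted p = 0.171). Between arrays of the same number Dlx6os1 was higher with DKK1 in all 3 pairs, and Fezf2 was lower in all 3. Pou3f4 was lower in all 3 by its brighter probe set. By its other probe set it was higher in all 3, with a log2 difference of 0.05 between the groups. These orders come from the same values and add no support to the call. Over all genes the block called 14 higher (0.105%) and 14 lower (0.105%), and with a block over all 9 arrays 0 were called. The labels do not say that a number marks a shared culture or day. The 2 values for Fezf2 against primary cells, -4.14 with DKK1 and -3.43 without, share the primary arrays.

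**Figure D2:**
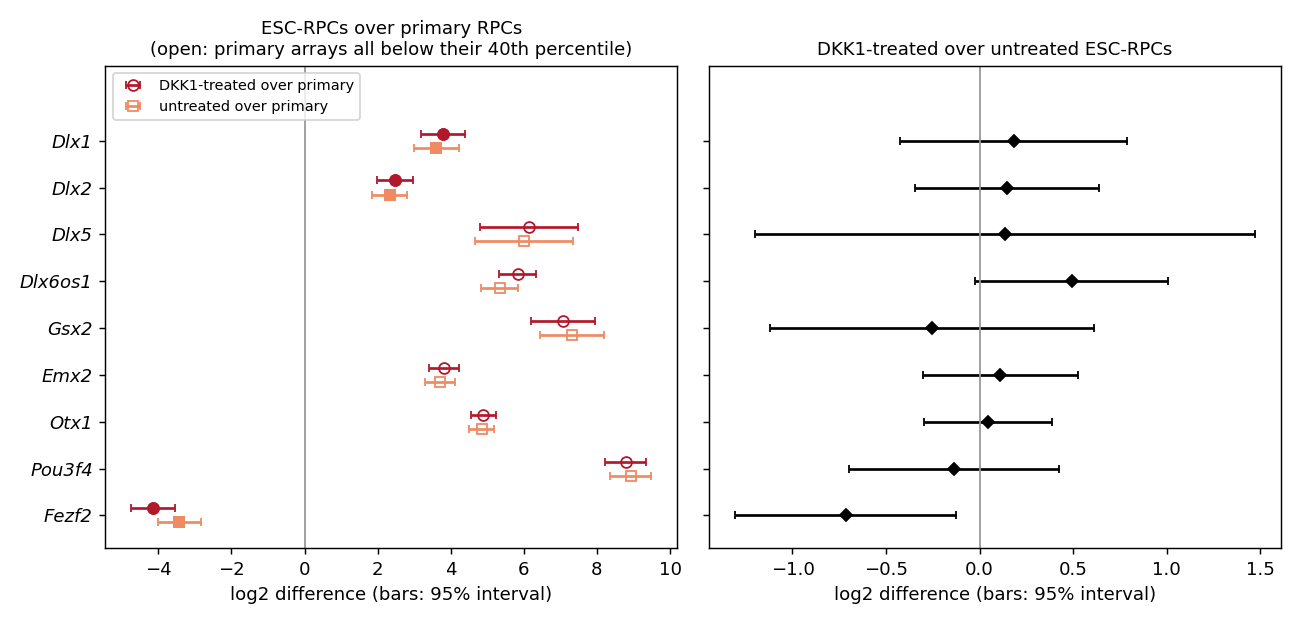
Fitted log2 differences with 95% intervals for the 9 genes: on the left, DKK1-treated and untreated ESC-RPCs over primary RPCs, with open symbols where all primary arrays are below the 40th percentile, so that the fitted size is no bound; on the right, DKK1-treated over untreated ESC-RPCs. On the right 8 of 9 intervals include 0 and that of Fezf2, -1.31 to -0.12, does not.

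Within the ESC-RPC groups the genes fell into recurring orders of arrays. Dlx1, Dlx2, Dlx5, Dlx6os1 and Gsx2, 5 of the 9 genes, were lowest on array 3 of both groups, which 23.2% of all genes were. Of the 9, 2 were lowest on array 1 of both, against 10.0% of all genes, and 0 on array 2, against 17.4%. Emx2, Otx1, Pou3f4, Gsx2 and Fezf2, 5 of the 9, were highest on array 2 of both groups, which 18.8% of all genes were. A further 3, Dlx2, Dlx5 and Dlx6os1, were highest on array 1 of both, against 9.47% of all genes, and 0 on array 3, against 21.8%. The deviations of Dlx1 from the group mean on array 3 were -0.33 with DKK1 and -0.45 without, and those of Dlx6os1 were -0.39 with DKK1 and -0.32 without. Dlx1as, a noncoding RNA gene that overlaps Dlx1, and Dlx6 were also lowest on array 3 of both groups, at -0.47 with DKK1 and -0.72 without for Dlx1as, and at -0.48 with DKK1 and -0.31 without for Dlx6. Dlx1as was added after the annotation was read. Not all relatives had this order: Gsx1 was lowest on array 2 of both groups. Dlx3, near or below the percentile, was highest on array 3 with DKK1, at 1.63. Genes outside the DLX loci had it too, since Six3, Gad1, Gad2 and Pou3f1 were lowest on array 3 of both groups.

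**Figure D3:**
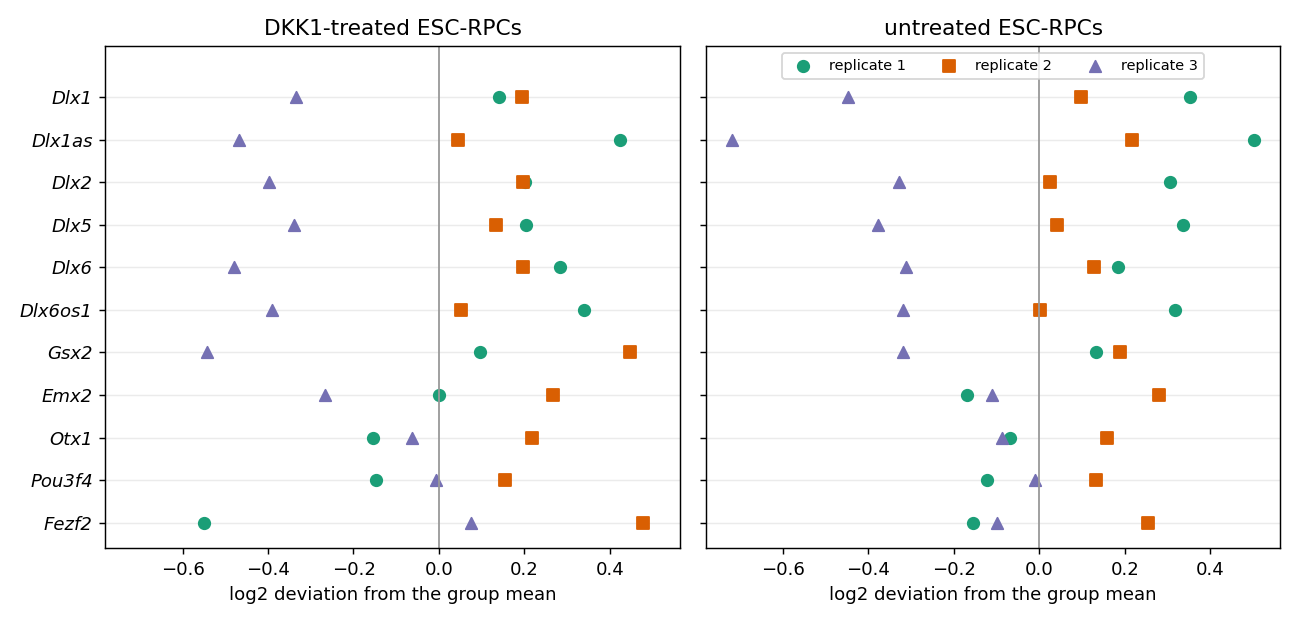
Deviation of each ESC-RPC array from its group's mean (log2) for the 9 genes, Dlx6 and Dlx1as, with DKK1-treated cells on the left and untreated cells on the right; symbols mark replicates 1 to 3. Replicate 3 lies lowest for the Dlx genes shown and Gsx2 in both panels, for example at -0.33 with DKK1 and -0.45 without for Dlx1.

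Relatives of the genes were not all high together. Of the 6 DLX genes on the array, 5 passed the filter; 4 of those rose and 0 fell with DKK1-treated over primary cells, and 4 rose and 1, Dlx3, fell with untreated over primary cells. Dlx6 was at least 4.09-fold higher with DKK1 and at least 3.54-fold higher without, with intensities of 236, 222 and 139 on DKK1-treated arrays, 190.5, 183 and 135 on untreated arrays, and 15.6, 2.59 and 1.55 on primary arrays. Dlx1as was at least 14.3-fold higher with DKK1 and at least 14.2-fold higher without, and its primary arrays, 7.14, 11.4 and 1.08, were all below the percentile. Whether its probes read the noncoding RNA or the overlapping Dlx1 was not checked here either. Dlx3, known from placodes and skin, was near or below the percentile in ESC-RPCs, at 14.1, 6.14 and 50.7 with DKK1 and 11.5, 5.04 and 3.53 without, against 72.3, 64.1 and 29.6 on primary arrays. Dlx3 was not called with DKK1 (log2 -1.66, limma adjusted p = 0.148) and was called without (limma adjusted p = 0.0134), where all untreated arrays and 1 of the 3 primary arrays were below the percentile, so it was at least 1.10-fold lower. Another Dlx3 probe set did not pass the filter. Its untreated arrays, 43.1, 28.3 and 40.6, overlapped its primary arrays, 27.4, 46.5 and 47.4. Dlx4 did not pass the filter. Gsx1, the other Gsx gene, was at least 3.17-fold higher with DKK1 and at least 4.74-fold higher without, as Gsx2 was. Emx1, the relative of Emx2, read 9.65, 11.2 and 11.0 with DKK1, 9.11, 43.7 and 30.3 without, and 14.1, 28.3 and 8.51 on primary arrays by the brighter of its 2 probe sets. Both probe sets were below the percentile in all 3 groups. In the OTX pair Otx2 had the opposite sign to Otx1: 5362, 6406 and 5313 with DKK1, 4979, 6258 and 5173 without, and 13186, 14394 and 18896 on primary arrays, a log2 difference from primary cells of -1.43 ± 0.13 with DKK1 (SE, limma adjusted p = 8.38e-06) and -1.49 ± 0.13 without (limma adjusted p = 6.25e-06). Otx2 is required for photoreceptor fate. In the FEZ pair Fezf1 was higher, at least 2.47-fold with DKK1 and at least 2.53-fold without, where Fezf2 was lower. Among the POU3F relatives of Pou3f4, Pou3f3 was higher than in primary cells by 4.87 ± 0.23 with DKK1 and 4.89 ± 0.23 without on the log2 scale, and Pou3f2 by 1.53 ± 0.26 with DKK1 and 1.45 ± 0.26 without (SE, limma adjusted p up to 0.00095). Pou3f1 had log2 differences of -0.10 with DKK1 and -0.20 without and was not called. A dimmer Pou3f1 probe set had -0.50 with DKK1 (limma adjusted p = 0.0434) and -0.56 without (limma adjusted p = 0.0275) and was called in both.

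**Figure D4:**
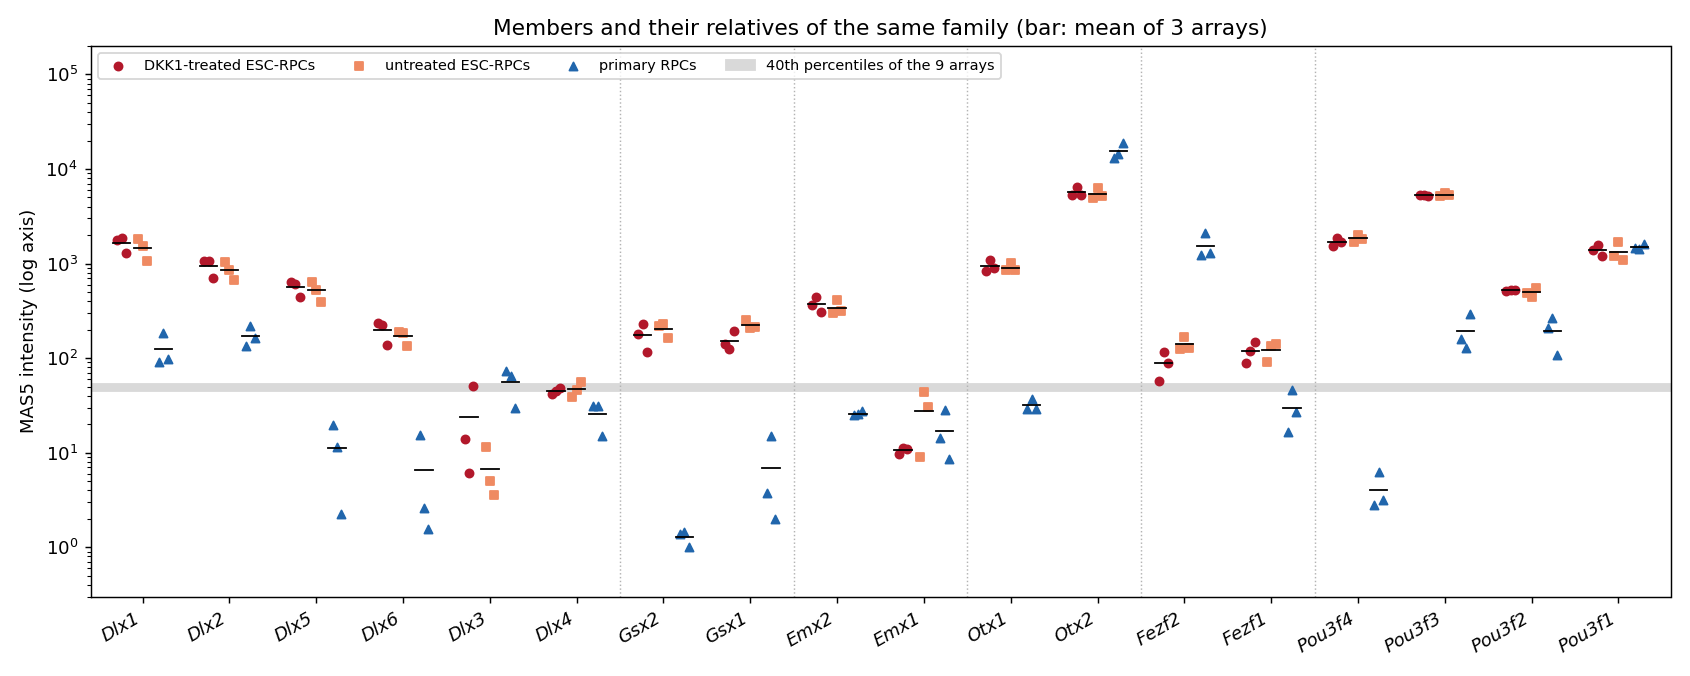
MAS5 intensity (log axis) on each array for the 9 genes' families, in the order DLX, GSX, EMX, OTX, FEZF and POU3F, with bars at means of 3 arrays and the 40th percentiles as a band. Otx1 and Otx2 lie in opposite orders between ESC-RPCs and primary RPCs, as do Fezf2 and Fezf1.

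Genes of the same regions were counted beside them. Of 12 kept genes of the ventral telencephalic and GABAergic list, 7 rose and 3 fell with DKK1-treated over primary cells, and 6 rose and 3 fell with untreated over primary cells. Its median log2 difference was 0.86 with DKK1 and 0.54 without, against -0.01 over all genes in both. Sp8, a zinc-finger gene of the lateral ganglionic eminence, rose at least 13.9-fold with DKK1 and 15.9-fold without, and Gad1, which makes GABA, rose by 2.59 ± 0.31 with DKK1 and 2.19 ± 0.31 without (SE) on the log2 scale. Gad2, which also makes GABA, had log2 differences of 0.12 with DKK1 and -0.15 without and was not called; its other probe set gave -0.46 with DKK1 and -0.64 without, called only without DKK1 (limma adjusted p = 0.019). Lhx6, a factor of migrating GABAergic neurons, did not pass the filter: it read 71.1, 36.8 and 24.0 on DKK1-treated arrays, 33.1, 32.4 and 37.7 on untreated arrays, and 19.2, 21.2 and 21.8 on primary arrays. Six3, a homeodomain factor of the anterior forebrain and eye, fell by 2.25 with DKK1 and 2.79 without on the log2 scale, and read 1449, 2212 and 940.3 with DKK1, 931, 1537 and 693 without, and 6395, 6922 and 7371 on primary arrays. Of 13 kept genes of the dorsal telencephalic list, 8 rose and 4 fell with DKK1 and 8 rose and 3 fell without, with log2 medians of 0.63 with DKK1 and 0.94 without. Lhx5, a LIM homeodomain factor, was higher by 2.71 with DKK1 and 2.51 without on the log2 scale, and Lhx2, a LIM homeodomain factor of cortex and eye, had -1.86 with DKK1 and -1.57 without. Of 14 kept diencephalic and hypothalamic genes, 10 rose and 2 fell with DKK1 and 11 rose and 2 fell without, with log2 medians of 2.26 with DKK1 and 2.35 without. Dbx1, a homeodomain progenitor factor, had log2 differences of 5.72 with DKK1 and 5.91 without, and Lhx1 had 5.32 with DKK1 and 4.88 without; each was above the percentile on 2 of 3 primary arrays. Of 7 kept anterior neural plate genes, 2 rose and 4 fell in both comparisons, with log2 medians of -1.43 with DKK1 and -1.49 without. Of 15 kept placode, surface ectoderm and branchial arch genes, 7 rose in both comparisons, 2 fell with DKK1 and 3 without, with log2 medians of 0.71 with DKK1 and 0.44 without. Gata3, a zinc-finger factor, rose at least 19.5-fold with DKK1 and 14.2-fold without. Tfap2a, next in that list by adjusted p, went the other way, with log2 differences of -2.42 with DKK1 and -2.33 without. Among 7 DLX-linked retinal genes 3 rose and 3 fell in both comparisons, with log2 medians of 0.12 with DKK1 and -0.15 without. Nrp2, a semaphorin receptor, rose by 2.69 with DKK1 and 2.66 without on the log2 scale, and Otx2 fell. The lists share genes, among them Otx2, Six3, Gad1, Crx and Lhx5. Crx, a photoreceptor gene in that list, was on primary arrays at 4614, 2953 and 5866 and below the percentile on all ESC-RPC arrays.

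The identity of the cells was checked by marker lists, read against the same background. Retinal progenitor markers, summed over 6 genes, ranged from 14526 to 15346 with DKK1, 13682 to 14511 without, and 34266 to 40094 on primary arrays. Most of the ESC-RPC sum was Sox2, a general neural progenitor gene that was higher in both comparisons; the other 5 genes, all lower in both, summed to 3563 to 4576 with DKK1, 3425 to 4406 without and 26624 to 31655 on primary arrays. Rax, a homeodomain factor of the eye field, read 30.9, 1.66 and 4.88 with DKK1, 7.47, 50.2 and 27.0 without, and 3185, 3635 and 4996 on primary arrays. Photoreceptor and bipolar markers, summed over 8 genes, were 1240 to 1682 with DKK1, 1456 to 1859 without and 32757 to 47300 in primary RPCs, with Crx, Nrl, Rcvrn, Sag and Pdc below the percentile on all ESC-RPC arrays and Vsx1 below it on all 9 arrays. Retinal ganglion cell markers, summed over 9 genes, were 7344 to 9248 with DKK1, 8188 to 9964 without and 20132 to 26680 in primary RPCs. Of these, 9 of 9 fell with DKK1 and 8 of 9 without. Amacrine and horizontal cell markers, the other cells in which Dlx genes act, were 8873 to 12949 with DKK1, 8025 to 10181 without and 8843 to 10357 in primary RPCs, with 3 of 12 higher and 5 of 12 lower in both comparisons. Gad1 and Lhx1, also counted in the forebrain lists above, made up 5417 to 8361 of that sum with DKK1, 4254 to 6163 without and 483 to 1291 in primary RPCs. The other 10 genes summed to 3456 to 4588 with DKK1, 3771 to 4344 without and 8360 to 9066 in primary RPCs. These genes were set apart after their values were seen. Mesenchyme markers were 18421 to 22019 with DKK1, 18162 to 22197 without and 646 to 902 in primary RPCs, with 9 of 9 higher in both. Pluripotent cell markers were 20198 to 21555 with DKK1, 17477 to 21068 without and 243 to 330 in primary RPCs, with 7 of 7 higher, and astrocyte markers, 5 of 5 higher, were 18340 to 21041 with DKK1, 18271 to 21104 without and 1629 to 1900 in primary RPCs. Midbrain and hindbrain markers, 6 of 7 higher, were 2876 to 3681 with DKK1, 3595 to 4178 without and 292 to 418 in primary RPCs. Microglia markers were 102 to 197 with DKK1, 134 to 152 without and 811 to 1461 in primary RPCs. Retinal pigment epithelium markers were 483 to 577 with DKK1, 505 to 596 without and 719 to 898 in primary RPCs. Of their 5 kept genes, 2 were lower and 3 were not called in both comparisons. The log2 medians were 0.04 with DKK1 and 0.22 without. Rlbp1 averaged 162 with DKK1, 142 without and 414 in primary RPCs, so that gene carried much of the gap between the sums. General neural progenitor markers were 42774 to 44838 with DKK1, 44912 to 45272 without and 25764 to 31005 in primary RPCs. Of these, 3 of 5 were higher with DKK1 and 4 of 5 without, among them the sort gene Sox1. Fabp7 made up the largest part, with means of 23880 with DKK1, 24632.5 without and 14187 in primary RPCs. The Actb 3-prime over 5-prime ratio, a measure of RNA integrity, was 1.33 to 1.37 with DKK1, 1.32 to 1.37 without and 1.22 to 1.26 in primary RPCs. The same ratio for Gapdh was 0.759 to 0.792 with DKK1, 0.745 to 0.786 without and 0.725 to 0.757 in primary RPCs. For Gapdh the untreated and primary ranges overlapped. Sox1, by which ESC-RPCs were sorted, was at least 60.7-fold higher with DKK1 and 59.8-fold higher without than in primary RPCs and is no result. The part of each of these differences in the results for the 9 genes was not tested.

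As a description of pattern over the 9 arrays, with no test, the 3 genes with the highest Pearson correlation to each gene had r from 0.9907 to 0.9998. For Otx1 these were Dcn, Uncx and Col3a1, for Pou3f4 Col3a1, Reep3 and Dcn, and for Dlx5 Gria3, Dlx1as and Prkdc. For Fezf2 they were Kifc5b, Rfk and Klhdc8a. The 9 points share groups, so any 2 genes that differ between ESC-RPCs and primary RPCs correlate here.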

How the data were processed

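Transcripts were measured on 9 Affymetrix 3-prime arrays, 3 arrays in each of 3 groups. The deposited values are linear intensity values that the authors made with MAS5, per the submitters' processing notes, with no version given in the sources used here; in each deposited column the mean after trimming 2% at either end was 500.003, so the arrays had been scaled alike. Arrays give no read depth, and their number limits the precision.

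Probe sets were named from the platform annotation table: 34945 of 45101 had exactly 1 gene, 932 several and 9160 none, and 64 were controls. No symbol was changed (0 updates), and 34741 gene IDs matched RefSeq. No build was named in the sources used here. Log2 of the deposited intensity was taken with no pseudocount. The 29052 probe sets that exceeded the 40th percentile of the array itself on 3 or more of 9 arrays were fitted in limma 3.58.1 (R 4.3.3) over all 9 arrays with 1 mean per group, an intensity trend and two-sided moderated tests. P-values were Benjamini-Hochberg adjusted over all 29052. A gene was counted by its brightest probe set (mean log2), giving 13320 genes. If a group had all 3 arrays under the percentile, a fold was computed from the mean log2 values with the dim group's raised to its percentiles, and is printed as "at least". The fit was tested on simulated data.

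The members and gene lists were chosen with earlier results of these data known, so no list is independent support. Named were all members, up to 4 genes of a list with the smallest adjusted p, and these relatives and markers in any case: Dlx3, Dlx4, Dlx6, Gsx1, Emx1, Otx2, Fezf1, Six3, Gad1, Gad2, Pou3f1, Pou3f2, Pou3f3, Lhx6, Rax and Sox1. Genes of the lists with no annotated probe set were not analysed here. Likeness was the Pearson correlation of log2 values over 9 arrays, and the 3 highest genes were taken, leaving out the 9 genes themselves and clone-style names. Alternatives were quantile normalisation, arrays set to one median, no filter, a 60th percentile filter, log2(value + 32), no intensity trend, 1 probe set or the mean of probe sets per gene, replicate blocks and leaving out each array.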

Additional observations from a re-analysis of the deposited data

How the results depend on the processing

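All 8 rises and the fall of Fezf2 against primary RPCs kept their direction and their call in the 162 alternative values computed for each of the 2 comparisons. For DKK1-treated over untreated cells the direction of small differences turned when 1 array was left out. Over those left-out arrays the log2 difference ranged from -0.0421 to 0.36 for Dlx1, -0.0189 to 0.34 for Dlx2, -0.0551 to 0.30 for Dlx5, -0.48 to 0.0171 for Gsx2, -0.0216 to 0.25 for Emx2 and -0.0658 to 0.12 for Otx1, and the cause was not tested. The replicate numbers appear in all 3 groups, but the labels give no shared batch. Deviations from group means of same-numbered DKK1-treated and untreated arrays correlated at 0.0908 to 0.223 over probe sets and 0.123 to 0.318 over genes, against -0.167 to 0.0282 and -0.234 to 0.0681 for different numbers. Every same-number value passed 0.1 over genes but not over probe sets, so whether the numbers pair the arrays is not settled, and both fits are given. With the replicate number as a block in the 6 ESC-RPC arrays, 1 gene of the set, Dlx6os1, was higher (log2 0.49 ± 0.07, SE, limma adjusted p = 0.0322), with 40 probe sets higher and 21 lower over all; its adjusted p over the other alternatives reached 1.0. With the block over 9 arrays 0 were called. Without the intensity trend 6 probe sets were higher. Dim values limit the fitted folds: 7 probe sets have only a bound against primary RPCs. These bounds depend on the percentile chosen. Against the 60th percentiles, with DKK1 and without, Dlx5 had 3.25 and 2.96, and Dlx6os1 4.30 and 3.06. Emx2 had 2.12 and 1.96, and Otx1 5.39 and 5.23. The brighter Pou3f4 probe set had 9.73 and 10.7, and the other 6.38 and 6.18. Gsx2 had no bound with DKK1 and 1.17 without. Some relatives lost theirs, such as Fezf1 in both comparisons. With 3 arrays a group DKK1 intervals stayed wide, such as -1.20 to 1.47 for Dlx5.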
